A study of Homo sapiens with 45 samples.

Results

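The expression of 10 genes of the oxygen response was followed across 15 human breast cancer cell lines. They are the hypoxia-inducible factor subunits HIF1A and EPAS1, the oxygen sensor EGLN3, the carbonic anhydrases CA9 and CA12, the secreted factors VEGFA, ADM and ANGPTL4, and the intracellular proteins NDRG1 and BNIP3. The genes were taken by symbol from a table of raw read counts. All 10 were found among its 64485 genes, and each was measured in all 45 libraries.

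HIF1A and EPAS1 (also called HIF-2 alpha) are the oxygen-regulated alpha subunits of the hypoxia-inducible factors. With oxygen present, prolyl hydroxylases of the EGLN family mark the subunits for VHL-dependent degradation, and at low oxygen the subunits persist, pair with ARNT and bind DNA at a short core motif near their target genes. This control acts mainly on the protein, so the RNA of an alpha subunit does not measure its activity. The other 8 genes are textbook targets of these factors, and CA9 is widely used in breast tumours as a marker of hypoxia.

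Each line is given as wild type with no named treatment, and each gave 3 libraries of ribosome-depleted total RNA. The mutations carried by these tumour lines were not examined here. The RPMI 1640 lines were HCC1143, HCC1187, HCC1395, HCC1806, HCC1937, HCC38, HCC70 and BT-549, the last with added insulin. MDA-MB-436 was grown in L-15 with added insulin and glutathione, and L-15 also served for MDA-MB-231 and MDA-MB-468 as well as for MDA-MB-157 and MDA-MB-453. BT-20 was grown in EMEM with insulin and Hs578T in DMEM. The labels give no oxygen level. Sequencing runs 3, 4 and 5 each held 1 library of each of 11 lines. Runs 1 and 2 held those of Hs578T, MDA-MB-231, HCC38 and HCC1143. A cell line stands for the tumour cells of a single patient in culture, without the vessels and stroma of a tumour. Nothing in the labels says that the replicates of a line were separate cultures. The p-values between lines therefore rest on the spread of these samples alone, and that spread may be technical.

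Library totals ran from 2312138 to 14653677 counts with a median of 6263573, and the smallest was Hs578T replicate 2, which stood apart from the other Hs578T libraries for several of the genes below. The labels call every line epithelial. All 8 epithelial markers examined (among them EPCAM, CDH1 and KRT8) were at 10 CPM (counts scaled to the size of the library) or more in 9 lines, where their sum was 3051 to 9541 CPM. The label goes against the markers in 5 lines: in Hs578T, MDA-MB-157, MDA-MB-436, HCC1395 and BT-549 at most 2 of the 8 reached 10 CPM and the sum was at most 325 CPM. MDA-MB-231 lay between, with 5 of 8. Summed markers of endothelium reached 123 CPM and those of blood cells 35.1 CPM. In the line with the highest endothelial sum, BT-20, CDH5 was at 117 CPM.

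All 10 genes are protein-coding in GENCODE 29 (GRCh38). HIF1A spans chr14:61695513-61748259 and EGLN3 chr14:33924231-34462774, EPAS1 spans chr2:46293667-46386703, CA9 chr9:35673856-35681159, and CA12 chr15:63321378-63382161. VEGFA spans chr6:43770184-43786487, ADM chr11:10304680-10307397, ANGPTL4 chr19:8363289-8374373 and BNIP3 chr10:131966455-131982013. Promoter windows from RefSeq (GRCh38.p14, 250 bases before to 50 after a start) matched 8 of the 10 genes, and VEGFA and NDRG1 had no match. The core letters ACGTG and GCGTG, the forms in which the hypoxia response element is usually written, were searched on both strands, and overlapping matches were counted. At least 1 of the motifs was in a window of 7 of the 8 genes, against 48.4% of all 34943 promoter windows of that length. The first count is of genes and the second of windows: the 8 genes had 9 windows, and the second window of HIF1A held neither motif. ACGTG, held by 21.4% of all windows, was in those of CA9, ANGPTL4 and BNIP3, and EGLN3 held neither motif. Stretches are shown for CA9, the usual marker of hypoxia, and for ADM, ANGPTL4 and BNIP3, whose levels across lines were among the most alike below. For ANGPTL4 and BNIP3 they are the part of the 250 bases before the start that lies outside GENCODE exons. For CA9 and ADM, whose motifs lie in exons of longer GENCODE transcripts, they are 30 bases around the motif. Capitals mark the motifs in either orientation (CACGT and CACGC are the reverse complements), and a match is a description of letters only.

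CA9 (chr9:35673897-35673926, plus strand): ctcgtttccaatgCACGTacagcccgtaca
ADM (chr11:10304959-10304988, plus strand): agagcaggagcgcGCGTGgctgaggaaaga
ANGPTL4 (chr19:8363905-8364150, plus strand): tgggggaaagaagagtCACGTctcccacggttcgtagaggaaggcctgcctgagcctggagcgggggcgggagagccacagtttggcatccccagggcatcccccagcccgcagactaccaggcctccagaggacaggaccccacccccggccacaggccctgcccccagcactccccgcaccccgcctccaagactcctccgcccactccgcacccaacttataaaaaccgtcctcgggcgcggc
BNIP3 (chr10:131982014-131982173, minus strand): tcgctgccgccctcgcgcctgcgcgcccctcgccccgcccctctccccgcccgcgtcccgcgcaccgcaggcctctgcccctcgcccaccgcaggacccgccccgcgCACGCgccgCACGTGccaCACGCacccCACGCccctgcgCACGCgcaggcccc

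In CA9 the match begins 18 bases before the start. In ANGPTL4 it lies 234 bases before the start and in ADM, as GCGTG, 101 bases before it. BNIP3 has 6 matches between 143 and 104 bases before the start, and its palindrome CACGTG gives 2 of them.

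All 10 genes differed among the 15 lines (edgeR quasi-likelihood F test, adjusted p from 3.3e-24 for HIF1A to 1.6e-37 for CA12). The same test called 98.3% of the 20587 genes tested, so the count alone sets nothing apart. The highest line exceeded the lowest by a median of 169-fold over the 10 genes, with ANGPTL4 entered at its lower bound. Over the tested genes the median was 9.55-fold, but it leaves out genes without reads in a line, so the sets are not alike. HIF1A, with 13.9-fold, and VEGFA, with 18.2-fold, varied least (ratios of summed counts), and CA12, with 2572-fold, and ANGPTL4, with at least 1046-fold, varied most. Each line was then compared with the mean of the other 14, and a call needed an adjusted p under 0.05 and a log2 difference of at least 1. Of the 150 pairs of gene and line, 50 were called higher, against 16.2% of all gene and line pairs, and 36 were called lower, against 12.6%. The 10 genes were chosen with earlier results of these data known. These and the later comparisons with all genes are therefore descriptions only.

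**Figure D1:**
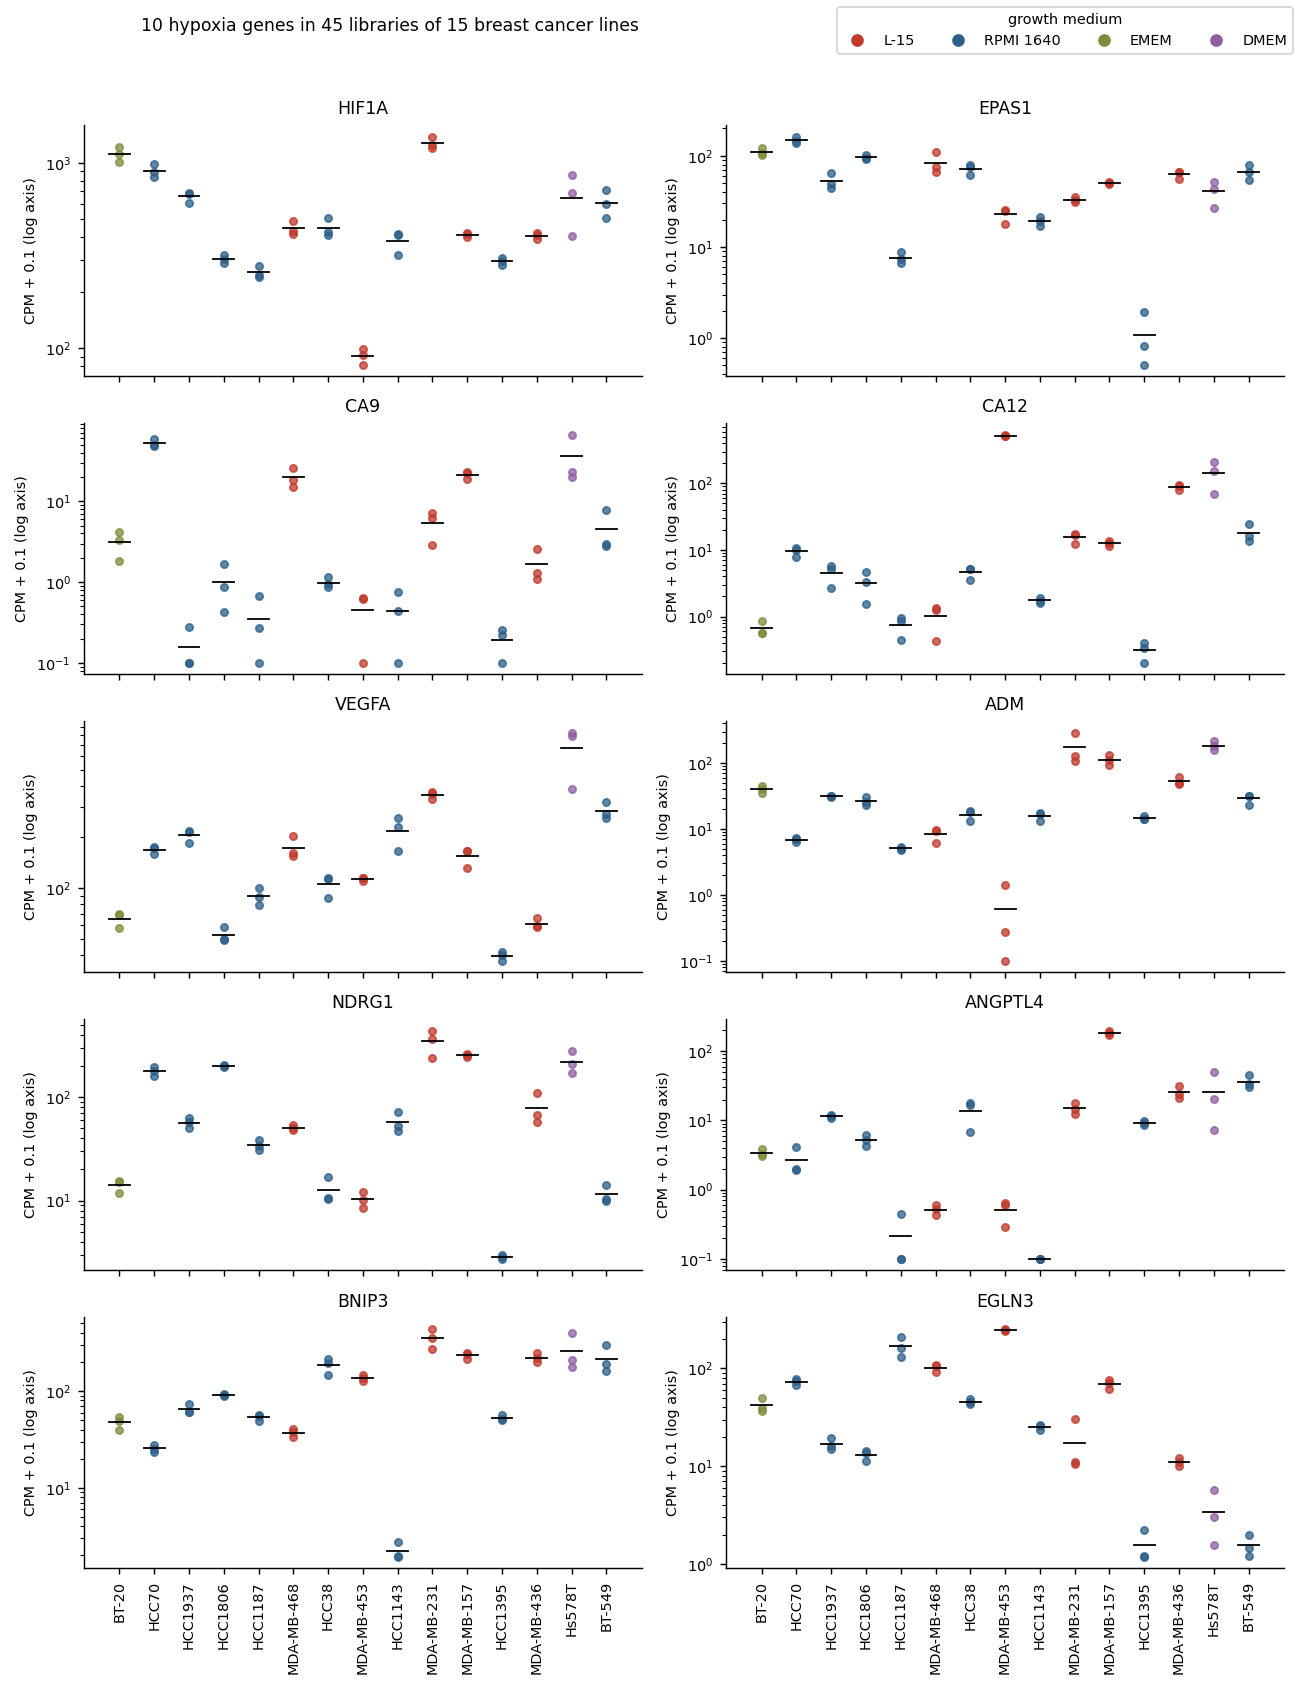
CPM plus 0.1 (log axis) of the 10 genes in each of the 45 libraries, with lines ordered from the most to the least epithelial marker signal, points coloured by growth medium and a bar at the mean of 3 replicates. CA12 stands at 519 CPM in MDA-MB-453, ANGPTL4 at 186 CPM in MDA-MB-157, and BNIP3 at 2.11 CPM in HCC1143, far from the other lines.

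HIF1A encodes the alpha subunit that most cell types carry. The MDA-MB-231 libraries held 1200.2, 1247 and 1382 CPM and the BT-20 libraries 1213, 1007 and 1120.4 CPM. These 2 lines overlapped and lay above all others. HCC70 followed with 903 ± 71.1 CPM (SD, n = 3), and these 3 lines were called higher, HCC70 not so with DESeq2 or its size factors. At the other end MDA-MB-453 held 81.2, 91.7 and 98.3 CPM. Its 3 libraries lay below those of every other line, and the log2 difference from the mean of the others was -2.51 ± 0.15 (SE, adjusted p = 6.0e-20 by edgeR). The other 11 lines ran from 256 CPM in HCC1187 to 657 CPM in HCC1937, and most neighbours among them overlapped. Of the 14 steps in the order of lines, 5 separated all replicates of a line from those of the next, against 14.9% of such steps over all genes. For the other 9 genes that count was between 2 (CA9) and 7 (VEGFA, ADM and EGLN3). In these bulk libraries, fewer cells with a transcript and less of it per cell cannot be told apart. Hs578T spanned 853, 403 and 687 CPM, and replicate 2 was the low library.

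EPAS1, the alpha subunit known from endothelium and kidney cancer, followed another order. HCC70 was highest with 145, 137 and 163 CPM, above all libraries of other lines. BT-20 (111 ± 10.5 CPM), HCC1806 (96.7 ± 5.70 CPM) and MDA-MB-468 (83.8 ± 23.3 CPM) were called higher too, and each overlapped with the next line in the order. HCC1395 had almost none, with 1.84, 0.720 and 0.407 CPM from 22 counts in all, and HCC1187 had 6.62, 8.74 and 7.28 CPM. The log2 differences of these 2 lines were -5.74 ± 0.27 and -2.49 ± 0.20, and both were separated from all other lines. HCC1143 was the third line called lower, at 19.1 ± 1.98 CPM, although with DESeq2 or its size factors this call was lost.

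Per kilobase of exon, HIF1A exceeded EPAS1 in all 45 libraries. The ratio was smallest in HCC1806, at 4.43, and MDA-MB-453, at 5.62. It was largest in HCC1395, at 422, where EPAS1 was nearly absent, and reached 55.1 in MDA-MB-231, where HIF1A was highest. A high HIF1A level thus came with a high EPAS1 level in HCC70 and BT-20 but not in MDA-MB-231, whose EPAS1 (32.8 ± 2.29 CPM) was not called in either direction.

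**Figure D2:**
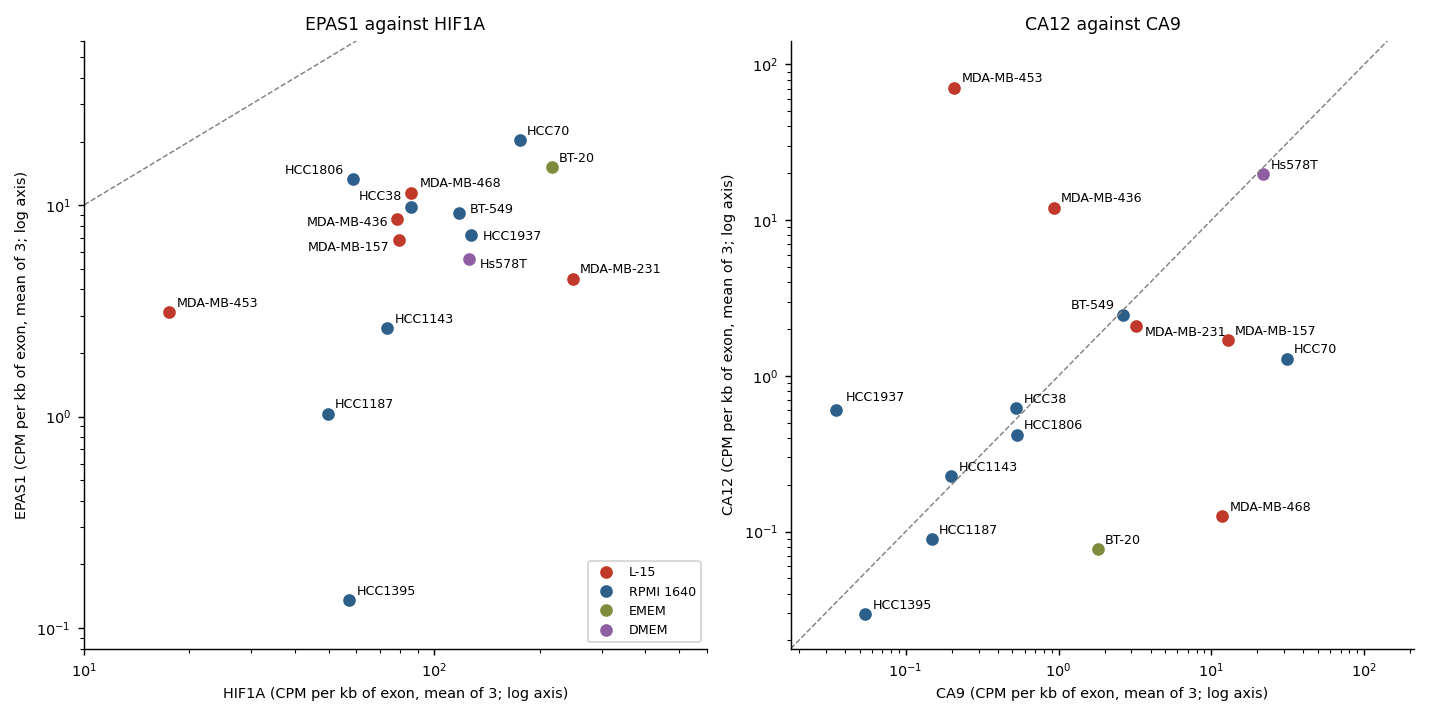
Mean CPM per kilobase of exon of EPAS1 against HIF1A (left) and of CA12 against CA9 (right) in 15 lines, on log axes coloured by medium, with a dashed line at equal levels. All lines lie under the dashed line on the left, and on the right the lines fall on both sides, with MDA-MB-453 at 71.0 for CA12 and 0.208 for CA9.

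EGLN3 encodes an oxygen-dependent prolyl hydroxylase of the alpha subunits and is itself a target of them. It was highest in MDA-MB-453, with 254, 241 and 246 CPM, the line with the least HIF1A. HCC1187 came next with 163, 131 and 209 CPM and then MDA-MB-468 with 105, 91.8 and 108 CPM, and no library of these 3 lines overlapped with another line. HCC70, MDA-MB-157 and HCC38, at 72.8, 69.9 and 45.7 CPM, were called higher as well, and the call in HCC38 was lost without replicate 2. HCC1395, with 2.14, 1.08 and 1.12 CPM, and BT-549, with 1.36, 1.89 and 1.11 CPM, were lowest and overlapped. Their log2 differences were -4.32 ± 0.28 and -4.28 ± 0.28, and Hs578T (3.33 ± 2.07 CPM) and MDA-MB-436 were also called lower. In MDA-MB-231 replicate 1 stood above the others, at 30.0, 10.9 and 10.5 CPM.

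CA9 and CA12 are membrane carbonic anhydrases with an outward-facing active site that turn CO2 and water into bicarbonate and protons. CA9 was highest in HCC70, with 47.8, 49.8 and 58.3 CPM. Hs578T followed with 66.7, 23.1 and 19.6 CPM, and its replicate 1 exceeded every HCC70 library. MDA-MB-157 (22.8, 22.5 and 18.7 CPM) and MDA-MB-468 (15.1, 18.1 and 25.8 CPM) formed the rest of a high group of 4 lines, separated from all others. The log2 differences of the 4 lines were 5.05 ± 0.21, 4.53 ± 0.23, 3.67 ± 0.26 and 3.54 ± 0.26 in that order. MDA-MB-231 (5.35 ± 2.27 CPM) and BT-549 (4.44 ± 2.87 CPM) were called higher by smaller margins.

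The 5 lines called lower for CA9 each rested on few reads. HCC1937 and HCC1395 had 2 counts each over 3 libraries, HCC1187 had 4, HCC1143 had 6 and MDA-MB-453 had 7, and these lines could not be ordered among themselves. HCC70 exceeded HCC1937 by 657-fold in summed counts (95% counting interval 181 to 5428). No CA9 read was found in 6 of the 45 libraries. Without replicate 3 the calls of lower CA9 were lost in HCC1143, HCC1187, HCC1395 and MDA-MB-453 and kept in HCC1937, and the call of higher CA9 in BT-549 was lost as well. Of the CA9 exons, 38.5% (643 bases) overlap ARHGEF39 on the opposite strand. The strand setting of the counting is not given in the sources used here, so reads of this stretch cannot be told apart. ARHGEF39 was highest in HCC70 (49.4 CPM) and MDA-MB-468 (30.5 CPM), both of the high CA9 group. It was lowest in Hs578T (5.43 CPM) and low in MDA-MB-157 (5.81 CPM), the rest of that group. Over the 15 lines its r with CA9 was -0.05. The part of ARHGEF39 reads in the CA9 counts was not tested.

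CA12, a carbonic anhydrase known in breast tissue from estrogen receptor-positive tumours, had the widest measured range of the 10 genes. MDA-MB-453 held 509, 509.7 and 538 CPM, more than every library of another line, with a log2 difference of 6.75 ± 0.12 (adjusted p = 2.1e-41 by edgeR). Hs578T held 209.8, 70.1 and 153 CPM, and MDA-MB-436 89.9, 93.8 and 80.6 CPM. These 2 lines overlapped through Hs578T replicate 2, and both lay above the remaining 12 lines. BT-549 (18.0 ± 5.74 CPM) and MDA-MB-231 (15.4 ± 2.97 CPM) were called higher too. There were 6 lines called lower, from HCC1806 (3.07 ± 1.55 CPM) down to BT-20 (0.562 ± 0.170 CPM, 11 counts) and HCC1395 (0.216 ± 0.104 CPM, 5 counts). The call in HCC1806 was lost without replicate 2 and within the 11 lines of runs 3 to 5. The ratio of MDA-MB-453 to HCC1395 was 2572-fold (95% counting interval 1102 to 7923).

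The enzymes divided the lines differently. Per kilobase, CA9 exceeded CA12 in all 3 libraries of MDA-MB-468 (94.1-fold in the means), HCC70 (24.2-fold), BT-20 (23.5-fold), MDA-MB-157 (7.54-fold) and MDA-MB-231 (1.52-fold). CA12 exceeded CA9 in all 3 libraries of MDA-MB-453 (341-fold), HCC1937 (17.1-fold, on 2 CA9 counts) and MDA-MB-436 (12.9-fold). Hs578T carried both, at 21.8 CPM per kilobase for CA9 and 19.7 for CA12. Its libraries and those of the other 6 lines fell on both sides of equality. In HCC1395, HCC1187 and HCC1143 both enzymes were called lower.

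VEGFA, the endothelial growth factor, was highest in Hs578T, with 827, 385 and 796 CPM. Replicate 2 was the low library, and it still lay above all libraries of other lines. MDA-MB-231 (359, 337 and 370.5 CPM) and BT-549 (272, 260.3 and 320.4 CPM) followed, each separated from its neighbours. These 3 lines were called higher, with log2 differences of 2.45 ± 0.10, 1.47 ± 0.11 and 1.13 ± 0.11. HCC1395 was lowest with 36.9, 39.7 and 41.3 CPM, and HCC1806 (52.4 ± 5.05 CPM), MDA-MB-436 (61.4 ± 4.46 CPM) and BT-20 (65.3 ± 6.51 CPM) were called lower with it. The calls in MDA-MB-436 and BT-20 were lost within the 11 lines of runs 3 to 5. Every line had at least 39.3 CPM, and no library held fewer than 241 VEGFA counts.

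ADM encodes adrenomedullin, a vasodilator peptide. Hs578T, with 179, 216 and 159 CPM, and MDA-MB-231, with 106, 128 and 289 CPM, were highest and overlapped, and without Hs578T replicate 2 the first place passed from Hs578T to MDA-MB-231. MDA-MB-157 (94.7, 130.4 and 111 CPM) and MDA-MB-436 (49.8, 60.7 and 48.9 CPM) were called higher too. MDA-MB-453 had 0, 0.170 and 1.34 CPM from 11 counts, and 10 of these were in replicate 3. Its log2 difference was -5.55 ± 0.37 (adjusted p = 4.2e-18 by edgeR). HCC1187, HCC70 and MDA-MB-468, at 4.97, 6.78 and 8.32 CPM, were called lower with it.

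ANGPTL4, a secreted inhibitor of lipoprotein lipase, was highest in MDA-MB-157, with 186, 198 and 174 CPM. All 3 libraries lay above every library of another line, and BT-549, the next line, held 44.7, 33.4 and 30.0 CPM. Hs578T spanned 7.25, 49.8 and 20.5 CPM, where replicate 2 was the high library, and MDA-MB-436 held 24.4, 21.2 and 30.9 CPM. HCC1143 had 0 counts among 15899238 over its 3 libraries, at least 57.7-fold below the median of the other lines (floor of 3 counts over the line). HCC1187 had 2 counts, and MDA-MB-453 and MDA-MB-468 had 8 each. Because the mean of the other lines is taken on a log scale, the 0 of HCC1143 pulled it down. The test called ANGPTL4 higher in 8 lines and lower in HCC1143 alone, a call lost without replicate 3. HCC1187, MDA-MB-468 and MDA-MB-453 had log2 differences of -5.28, -3.49 and -3.46, but the edgeR fit gave no usable SE for them. With DESeq2 on all 15 lines these 3 lines were called. In HCC70 (log2 difference -0.67, SE 31.7) and BT-20 (-0.36, SE 3.86) the edgeR SE was not usable either. With HCC1143 left out, a choice made after seeing the data, 6 lines were called higher, led by MDA-MB-157 with a log2 difference of 5.30 ± 0.17 (adjusted p = 1.4e-28 by edgeR). In that fit HCC1187 (-5.91 ± 0.73), MDA-MB-468 (-4.11 ± 0.67), MDA-MB-453 (-4.07 ± 0.67) and HCC70 (-1.28 ± 0.39) were called lower, and the calls for HCC1395 and HCC1937 were lost.

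NDRG1, a stress-induced cytoplasmic protein studied as a suppressor of metastasis, was highest in MDA-MB-231, with 436, 364 and 238 CPM. MDA-MB-157 (241, 261 and 256 CPM), Hs578T (279, 207 and 171 CPM), HCC1806 (201, 205 and 197 CPM) and HCC70 (159, 179 and 193 CPM) were called higher as well, and neighbours in this order overlapped down to HCC1806, while HCC70 lay below HCC1806 in all libraries. HCC1395 was lowest with 2.91, 2.64 and 2.75 CPM, a log2 difference of -4.41 ± 0.24. MDA-MB-453, BT-549, HCC38 and BT-20, at 10.2 to 14.1 CPM, were also called lower. NDRG1 split lines that shared a high VEGFA level, since BT-549 was high for VEGFA and low for NDRG1.

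BNIP3 encodes a mitochondrial outer membrane protein that promotes mitophagy. MDA-MB-231 was highest with 441, 351 and 272 CPM, and it overlapped with Hs578T (397, 175 and 209.9 CPM). MDA-MB-157, MDA-MB-436, BT-549 and HCC38, between 187 and 233 CPM, completed 6 lines called higher, and their neighbours overlapped. HCC1143 stood alone at the bottom with 1.85, 1.83 and 2.65 CPM, below the next line, HCC70 (23.4, 25.0 and 27.9 CPM). Its log2 difference was -5.61 ± 0.27 (adjusted p = 3.6e-23 by edgeR). BNIP3 has 39 annotated pseudogenes, and in HCC1143 they held 130 counts against 36 for the gene, or 78.3% of both together, while in the other 14 lines their share was 1.35 to 8.31%. In those lines the pseudogene counts ran from 29 in HCC70 to 159 in Hs578T, against 701 and 4724 for the gene. How reads that fit several places were counted is not given in the sources used here, so the gene's own level in HCC1143 is uncertain.

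By line, MDA-MB-231 was called higher for 8 of the 10 genes and lower for none, where 15.7% of all genes were called higher in that line and 9.92% lower. Hs578T was called higher for 7 (background 20.7%) and lower only for EGLN3 (9.61%), and MDA-MB-157 higher for 6 (20.4%) and lower for none (12.2%). These 3 lines, picked after their values were seen, held 17 of the 30 places among the top 3 lines of a gene. The share of such places over all genes was not computed. HCC1395 was the opposite of these 3 lines, called lower for 6 (17.8%) and higher only for ANGPTL4 (14.4%), a call that depends on HCC1143. HCC1143 was called lower for 5 (11.5%) and higher for none (18.2%), and HCC1187 lower for 4 (12.9%) and higher only for EGLN3 (15.9%). BT-549 (5 higher, background 13%, and 2 lower, 11%), HCC70 (5 higher, 18%, and 2 lower, 22.7%) and MDA-MB-453 (2 higher, 17.2%, and 4 lower, 14.9%) had genes on both sides. MDA-MB-436 (4 higher, 16.6%, and 2 lower, 10.8%), HCC38 (3 higher, 13.9%, and 1 lower, 10.1%) and MDA-MB-468 (3 higher, 14.7%, and 3 lower, 9.2%) did as well. So did BT-20 (2 higher, 14.1%, and 3 lower, 11.4%), HCC1806 (2 higher, 15.7%, and 2 lower, 14%) and HCC1937 (1 higher, 14.7%, and 1 lower, 10.7%). For MDA-MB-453 the higher genes were CA12 and EGLN3 and the lower ones HIF1A, CA9, ADM and NDRG1. The counts of BT-20, HCC70, HCC1187, MDA-MB-453 and MDA-MB-468 leave out ANGPTL4, for which the edgeR fit gave no usable SE in these lines. No line was called in the same direction for all 10 genes. Without HCC1143, 47 of the pairs were called higher, against 16.3% of all pairs, and 40 lower, against 12.7%, and BNIP3 in HCC38 was no longer called.

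**Figure D3:**
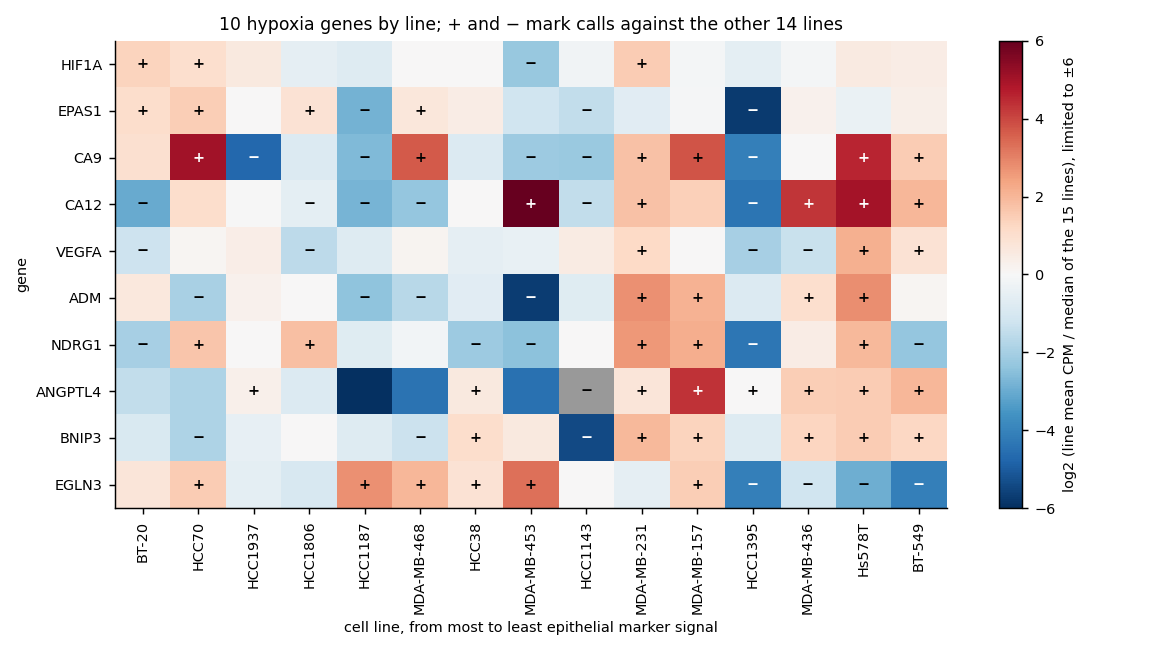
Line means of the 10 genes (rows) in 15 lines (columns, from most to least epithelial marker signal), as log2 of the mean CPM over the median of the 15 lines, with + and − for calls against the mean of the other 14 lines and grey for 0 counts. MDA-MB-231 has 8 plus signs, HCC1395 has 6 minus signs, and EGLN3 is marked lower in 4 of the 5 lines with the fewest epithelial markers.

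Across the 15 line sums (log2 CPM) the genes moved together only in part. The values below are descriptions over 15 lines that share sequencing runs. The pairs with the highest Pearson r were ANGPTL4 and BNIP3 (Pearson r 0.74, Spearman rho 0.82), ADM and ANGPTL4 (0.69 and 0.77) and HIF1A and ADM (0.67 and 0.55). By rho, CA12 and BNIP3 (0.70), ADM and BNIP3 (0.67), ADM and NDRG1 (0.61) and HIF1A and VEGFA (0.59) stood above HIF1A and ADM. Without HCC1143 and HCC1187 the r of ANGPTL4 and BNIP3 was 0.61, and that of ADM and ANGPTL4 was 0.71 without MDA-MB-453 and MDA-MB-231. The relation of HIF1A and ADM rested on those same 2 lines, since without them r was 0.17. HIF1A had an r of 0.38 with VEGFA, 0.37 with NDRG1 and 0.05 with BNIP3. EGLN3 ran against ADM (r -0.56) and ANGPTL4 (r -0.51). Within the 11 lines of runs 3 to 5 the corresponding values were 0.62 for ANGPTL4 and BNIP3, 0.80 for ADM and ANGPTL4, 0.60 for HIF1A and ADM, -0.50 for ADM and EGLN3 and -0.60 for ANGPTL4 and EGLN3. The 4 lines of runs 1 and 2 are too few for a value.

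**Figure D4:**
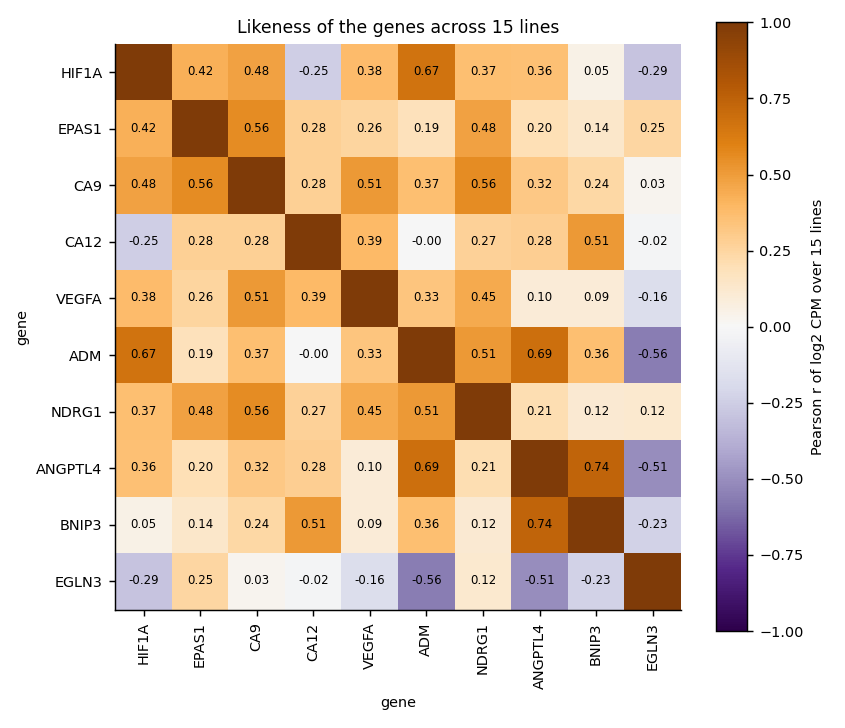
Pearson r between each pair of the 10 genes over log2 CPM of 15 line sums, printed in each cell. The highest value is 0.74, for ANGPTL4 with BNIP3, and the lowest is -0.56, for ADM with EGLN3.

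Among 9500 protein-coding genes with a mean of at least 10 CPM, the 3 with the highest r to each gene were taken. HIF1A was most like PVR, ACTN1 and SRPX2 (r 0.88, 0.85 and 0.84) and EPAS1 most like FAM20C, PHLDA3 and TRAF3IP2 (0.85, 0.84 and 0.82). CA9 was most like CCDC80, HSPB11 and TFPI (each 0.76), and CA12 most like SLC26A6, TXNIP and ITPR1 (0.78, 0.75 and 0.74). VEGFA was closest to SLC35B2, RASSF1 and ACYP1 (0.82, 0.79 and 0.74). ADM was closest to MICAL2, CRIM1 and OXSR1 (0.91, 0.90 and 0.90), ANGPTL4 to AHNAK, CLMP and DCBLD2 (0.86, 0.82 and 0.82), and NDRG1 to WIPI1, CLCN4 and NRP2 (0.85, 0.85 and 0.78). BNIP3 was closest to SLC36A4, ZNF182 and PGRMC2 (0.81, 0.81 and 0.79), which in the 11 lines of runs 3 to 5 were 0.55, 0.69 and 0.51. EGLN3 was closest to THRB, TMEM63A and RAB17 (0.91, 0.90 and 0.86).

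Epithelial marker signal moved with some of the genes over the 15 lines, and its part in their levels was not tested. The r of EGLN3 with the log2 of the summed CPM of the 8 epithelial markers was 0.73 (0.52 without BT-549 and Hs578T), and those of ANGPTL4, BNIP3 and ADM were -0.57, -0.46 and -0.40. For HIF1A it was 0.00. With the summed mesenchymal markers, ADM had an r of 0.55 and EGLN3 of -0.51. EGLN3 was called lower in 4 of the 5 lines with at most 2 epithelial markers at 10 CPM, while the other line of that kind, MDA-MB-157, held 69.9 ± 7.64 CPM and was called higher.

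In the rest of the pathway 65 of the tested genes differed among lines. The same test called 98.3% of all genes, so neither this count nor those of the single lists below set the pathway apart. Among partners and sensors 7 of the 8 tested were called. EGLN1, the main oxygen sensor of most cells, ran from 68.2 CPM in HCC1143 to 416 CPM in BT-549, and VHL from 51.3 to 154 CPM. ARNT, the shared beta subunit, ran from 19.8 CPM in HCC1937 to 132 CPM in HCC1187, and ARNT2 from 0.0906 CPM in HCC1806 to 19.0 CPM in Hs578T. HIF3A was the gene not called (adjusted p = 0.088 by edgeR), at 1.32 CPM or less in every line.

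Of the other ligands and receptors 9 of 9 tested were called. NRP1, a VEGF co-receptor, reached 433 CPM in HCC1187 and 3.57 CPM in MDA-MB-453, and VEGFB lay between 9.54 and 39.2 CPM. VEGFC was highest in Hs578T (44.0 CPM) and PGF in MDA-MB-157 (53.0 CPM), and both were lowest in BT-20 (0.254 and 0.203 CPM). Of the other carbonic anhydrases 9 of 10 tested were called, and CA14 was not (adjusted p = 0.14 by edgeR). HCC1143, with little CA9 and CA12, held 385 CPM of CA8, a family member without enzyme activity, against 0.261 CPM in HCC70. HCC70 held the most CA2, a cytosolic enzyme, at 54.8 CPM, and mitochondrial CA5B ran from 2.21 to 27.9 CPM.

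All 6 tested genes of acid and bicarbonate transport were called. The bicarbonate carrier SLC4A7 was highest in Hs578T (513 CPM) and SLC4A4 in MDA-MB-231 (19.6 CPM), while BSG, the chaperone of lactate carriers, ran from 72.1 to 193 CPM. The lactate exporter SLC16A3 ran from 0.369 CPM in HCC1187 to 78.4 CPM in MDA-MB-231. SLC16A1 did not pass the filter on low counts, with at most 0.346 CPM in a line. The annotation and the treatment of reads with several matches are not given. For SLC16A1, a missing transcript and reads left uncounted therefore cannot be told apart. All 26 tested further targets were called, against 98.3% of all genes. Their highest line exceeded the lowest by a median log2 of 3.73, against 7.40 for the 10 genes, with ANGPTL4 at its lower bound. The median was 3.26 for the tested genes with reads in every line. The glycolytic enzymes ENO1 (956 to 5296 CPM) and LDHA (306 to 2116 CPM) were abundant everywhere, while the glucose transporter SLC2A3 ran from 0.0564 CPM in HCC70 to 142 CPM in MDA-MB-231. HCC1187 was the lowest line for 7 of these 26 targets and HCC1143 for 4. HCC70 was the highest for 7, and Hs578T and MDA-MB-157 for 5 each. The shares of these lines over all genes were not computed, so the counts set nothing apart. All 8 tested relatives of NDRG1, ANGPTL4 and BNIP3 were called. BNIP3L, the mitophagy partner of BNIP3, was also lowest in HCC1143 (46.8 CPM, against 443 CPM in Hs578T), and BNIP2 was highest there (354 CPM). NDRG4 reached 55.3 CPM in HCC1806 and NDRG2 35.3 CPM in HCC70.

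Growth medium was compared over line sums, 5 lines in L-15 against 8 in RPMI 1640. L-15 is a medium with galactose in place of glucose. All L-15 lines carry MDA-MB names and all RPMI 1640 lines but BT-549 carry HCC names, so growth medium and line series cannot be told apart. None of the 10 genes was called by edgeR, and none of the 20505 genes tested was called higher (0%) or lower (0%). At an unadjusted p under 0.05 there were 2334 genes, CA12 and ADM among them. The median log2 difference of the 10 genes was 1.01, against -0.03 over all genes tested. CA12 was at 506 CPM in MDA-MB-453, 85.1 in MDA-MB-436, 15.1 in MDA-MB-231, 12.1 in MDA-MB-157 and 0.909 in MDA-MB-468, and at 0.214 to 18.3 CPM in the RPMI 1640 lines. The groups overlapped, through MDA-MB-468 at the low end and BT-549 at the high end. The log2 difference was 4.51 ± 1.19 (SE, adjusted p = 0.28 by edgeR), and 2.36 ± 1.01 without MDA-MB-453. DESeq2 called CA12 higher (4.49 ± 1.14, adjusted p = 0.0123), where it called 0.868% of genes higher. An exact permutation test over all 1287 splits of the lines, two-sided, gave p = 0.0567 for a difference of mean log2 CPM of 3.04.

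ADM was at 164 CPM in MDA-MB-231, 109 in MDA-MB-157, 51.4 in MDA-MB-436, 8.13 in MDA-MB-468 and 0.571 in MDA-MB-453, and at 4.83 to 30.7 CPM in the RPMI 1640 lines. The L-15 lines thus lay on both sides of the others, and the log2 difference was 1.87 ± 0.81 (adjusted p = 0.41 by edgeR). For the other genes it ran from -0.29 ± 0.78 for EPAS1 to 2.21 ± 1.32 for ANGPTL4, with adjusted p of 0.545 or more. HIF1A differed by 0.05 ± 0.49, and its direction and that of EPAS1 changed in the permutation test.

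**Figure D5:**
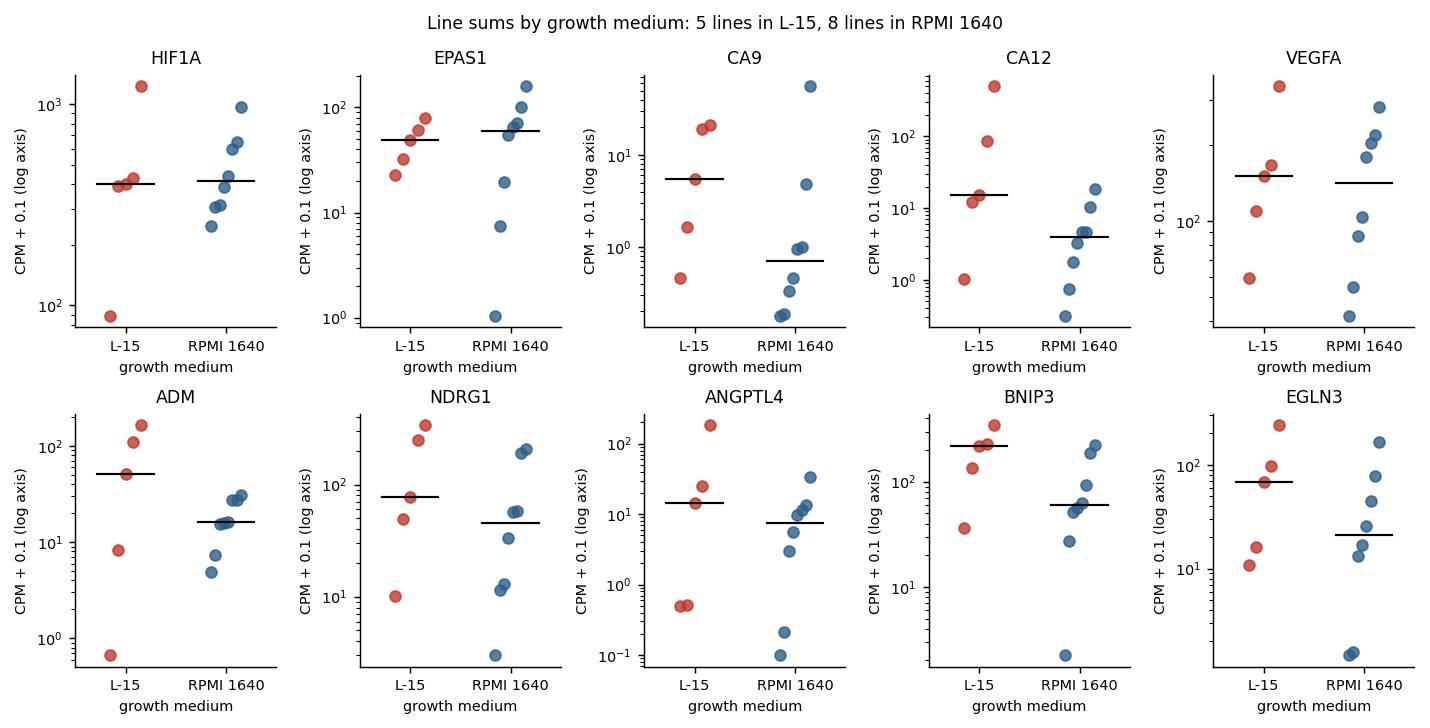
CPM plus 0.1 (log axis) of the 10 genes in the line sums of 5 L-15 lines and 8 RPMI 1640 lines, with a bar at the median of each group. The groups overlap for all 10 genes, and for CA12 4 of the 5 L-15 lines are at 12.1 CPM or more.

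Because the title of the study names MYC-high cells, each gene was set against the MYC level of the line, which ran from 4.07 log2 CPM in MDA-MB-453 to 7.60 in MDA-MB-231. None of the 10 genes was called by edgeR, where 0.00751% of the 26615 genes tested were called as rising with MYC and 0.147% as falling. At an unadjusted p under 0.05, 1649 genes passed, 2 of them CA12 and EGLN3. The slope of CA12 was -1.58 ± 0.50 log2 units per log2 unit of MYC (SE, adjusted p = 0.42 by edgeR) and that of EGLN3 -1.04 ± 0.46 (adjusted p = 0.76). In a limma fit on single libraries, the sequencing run was a block term and the libraries of a line were treated as correlated. Both genes were called as falling there, with slopes of -3.06 ± 0.40 (adjusted p = 3.6e-06 by limma) and -1.49 ± 0.37 (adjusted p = 0.025). That fit called 0.88% of genes as falling. It used a single MYC value for all libraries of a line, so its p-values can overstate the evidence. It was not repeated without MDA-MB-453. MDA-MB-453, the line with the least MYC, held the most CA12 and the most EGLN3. Without it the slopes over line sums were -1.10 ± 1.03 and -1.03 ± 0.86, and edgeR called no gene in either direction. For HIF1A the slope was 0.51 ± 0.29 (adjusted p = 0.85), and for CA9 -1.53 ± 0.93 (adjusted p = 0.87). Among the other pathway genes only INSIG2, an inhibitor of sterol synthesis, was called, with a slope of -1.03 ± 0.17 (adjusted p = 0.017 by edgeR). It was at 298 CPM in MDA-MB-453, and the call was lost without that line and in a fit with the L-15 medium as a second term.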

How the data were processed

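Total RNA of 15 cell lines, 3 libraries each, was depleted of ribosomal RNA and sequenced. Per the submitters' processing notes, the authors used bcl2fastq 2.20.0.422, FastQC, MultiQC, Trimmomatic, STAR and featureCounts with GRCh38.p12, and deposited raw counts per gene. For the annotation release, the strand setting and the treatment of reads with several matches, the sources used here give nothing.

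From these counts, CPM were computed with TMM scaling. Lines were compared with edgeR 4.0.16 (quasi-likelihood test, filterByExpr with a minimum count of 10 and minimum total of 15, Benjamini-Hochberg adjustment over all tested genes, threshold 0.05, log2 difference of at least 1 for a line against the others and for medium). Medium and MYC were tested on counts summed per line, and BT-20 and Hs578T, each alone in its medium, were left out of the medium comparison. SE is the estimate divided by the square root of F. Alternatives used limma 3.58.1, DESeq2 1.42.0 and exact permutation. The fits were tested on simulated data in which all lines shared a common profile apart from planted changes. That test does not show how often the fits would miss a change among these lines. Intervals (95%) and the floor of 3 counts cover counting error only.

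The members and lists were chosen with earlier results of these data known. Named besides the members were the 3 genes most like each, and from each list the genes that passed the medium or MYC test, the 2 with the highest mean and the 2 with the widest ratio of highest to lowest line among genes that reached 10 CPM in a line. HIF3A, CA14 and SLC16A1 were named after their values were seen. A gene that this rule selects is not reported here.

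In runs 3 to 5 the replicate number is the sequencing run, so the numbers pair the samples by run, per the labels. Deviations from the line means had a median correlation of 0.13 for 165 library pairs of the same run and -0.07 for 330 pairs of different runs. The deviations of a line cancel out, so a positive value within runs brings a negative one between runs. These values are therefore not separate observations.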

Additional observations from a re-analysis of the deposited data

Results flagged for a closer look

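BNIP3 in HCC1143 was flagged because the line lay far from the other RPMI 1640 lines. Its summed libraries gave 1.09 log2 CPM, and the other 7 of the 8 lines lay between 4.84 and 7.79. Chance flags about 1 in 20 such groups, and 20 groups (10 genes in 2 media) were checked. Reads on the BNIP3 pseudogenes made up 78.3% of the reads of the gene and its pseudogenes in that line, and their part in the low value was not tested. The pseudogenes held 130 counts there, and from 29 (HCC70) to 159 (Hs578T) in the other lines.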

How the results depend on the processing

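With the run as replicate block, all 10 genes still differed among lines, 51 pairs of gene and line were called higher, 37 lower, and 66 pathway genes differed, and no call was lost. Leaving out a replicate of every line gave 49 to 52 pairs higher, 31 to 38 lower and 64 to 65 pathway genes. In the 4 lines of runs 1 and 2 alone, 17 pairs were higher and 12 lower, and the calls of CA12 and VEGFA in MDA-MB-231 were lost. No called pair changed sign in any of these fits. DESeq2 called 1 of the 10 genes and 2 pathway genes higher in L-15 and 2 pathway genes lower. Over all genes, DESeq2 called 178 higher and 255 lower in L-15, where edgeR called 0 and 0, and 122 as rising and 143 as falling with MYC, where edgeR called 2 and 39. The limma fit with the replicate block called 2 of the 10 genes as falling with MYC. The ADM log2 ratio of highest to lowest line was 11.21 without replicate 3.

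Uncalled values changed sign as follows, and the cause was not tested. The L-15 difference of HIF1A was -0.12 without a filter, -0.66 in runs 3 to 5, -0.19 with the limma block and -0.25 in the permutation test. That of EPAS1 was 0.63 with the limma block and 0.58 in the permutation test, and that of VEGFA was -0.22 in runs 3 to 5. In runs 3 to 5 the MYC slopes of EPAS1, ADM, NDRG1 and BNIP3 were 0.13, -0.27, -0.57 and -0.14. With the limma block those of VEGFA, NDRG1, ANGPTL4 and BNIP3 were -0.22, -0.11, 0.48 and -0.33. Over the fits that leave out a line in turn, the L-15 difference ran from -0.60 (without MDA-MB-231) to 0.30 for HIF1A, from -0.59 to 0.11 (without HCC70) for EPAS1, from -0.29 (without MDA-MB-157) to 3.20 (without HCC70) for CA9 and from -0.28 (without MDA-MB-231) to 0.40 for VEGFA. The MYC slope ran from -0.80 (without MDA-MB-453) to 0.055 (without HCC70) for EPAS1, from -0.12 to 0.30 for VEGFA, from -0.73 to 0.76 for ADM, from -0.85 to 0.61 for NDRG1, from -0.26 to 0.20 for BNIP3 and from -1.22 to 1.30 (without MDA-MB-157) for ANGPTL4. The lowest slope of VEGFA, ADM, NDRG1 and BNIP3 was that without MDA-MB-231. Depth limits CA9, CA12, ANGPTL4 and ADM in the lines where they rest on few counts.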

Other observations

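HIF1A-AS2, a noncoding gene on the strand opposite HIF1A that shares no exon base with it, was highest in MDA-MB-231, at 9.54 CPM, the line with the most HIF1A, and no read of it was found in HCC1187. HIF1A-AS1 shares 117 exon bases with HIF1A and was at most 4.54 CPM, in MDA-MB-436. AL136131.3, opposite VEGFA with 188 shared exon bases, was highest in Hs578T, at 1.83 CPM.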
